A study of Mus musculus with 6 samples.

Results

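Glycolytic enzymes and target genes of the hypoxia-inducible factors were compared between whole hearts of wild-type (WT) and FOG-2R3K5A mouse embryos. The set holds 42 listed genes, 18 glycolytic enzymes and 24 other hypoxia targets, and a gene was measured where a probe set of the array was annotated to its symbol alone. That held for 40 of the 42, against 18193 genes with such a probe set in the whole series. Of these 40, 39 had 85 ordinary probe sets, and Gapdh was read by its 3 array control probe sets only. The expression of Eno1 and Gpi1 was not analysed here, and only their promoters were searched. The main probe set of a gene was the one with the highest mean over all arrays, and that mean exceeded the filter on low values (6.30 log2 units, an intensity of 78.9) for all 39, so that each of them entered the test.

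The series has 6 samples, 3 biological replicates of each genotype, each on 1 Affymetrix array. The labels give all 6 as whole hearts at embryonic day 16.5, give the strain as a mixture of C57/B6 and 129 S6, and name siblings from crosses of double heterozygous parents. The mutants carry FOG-2R3K5A, amino acid substitutions in FOG-2 (encoded by Zfpm2), a cofactor of GATA factors, that are known to remove its contact with the NuRD chromatin remodelling complex. The labels state neither the zygosity of the mutants nor whether a replicate was 1 heart or a pool, so p-values measure the spread between these 6 samples. The labels name no Cre or transgene driver.

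Glycolysis turns glucose into pyruvate, and lactate dehydrogenase converts pyruvate and lactate into each other. The fetal heart relies on glycolysis and lactate to a greater degree than the adult heart, which burns mainly fatty acids. When oxygen is short, the prolyl hydroxylases of the Egln family no longer mark HIF-1 alpha and HIF-2 alpha for breakdown, and the stabilised subunits pair with Arnt on DNA and raise many glycolytic genes and genes of oxygen supply, mitochondrial turnover and collagen processing. The comparison asks whether transcripts of this program differ between the genotypes.

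None of the 39 tested members passed the test between genotypes. By limma, with Benjamini-Hochberg adjustment of p across the 11113 genes that entered the test, 0 of 15 enzymes and 0 of 24 hypoxia targets were called at an adjusted p under 0.05, where the background was 1.76% of genes (196 called), 1.39% higher and 0.369% lower. At an unadjusted p under 0.05 there were 9 members (23.1%), 8 with a positive and 1 with a negative difference (3 enzymes and 6 hypoxia targets), against 14.7% of all genes. The genotypes did not overlap for 9 members (23.1%), 7 with the mutants above and 2 below, against a background of 21.2%, of which 11.5% above and 9.76% below. The share without overlap lay near the background and is not a result about the members, and no test was made of the other one.

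The 2 classes are described apart. Differences are mutant minus WT on the log2 scale throughout. Among the 15 enzymes they ran from -0.25 to 0.11 with a median of 0.01, and 9 were positive. Among the 24 hypoxia targets they ran from -0.40 to 0.50 with a median of 0.10, and 16 were positive (66.7%). Over all genes tested the median was -0.01 and 47.2% were positive. Over all 19 alternative settings the median ran from -0.05 to 0.05 for the enzymes, negative in 5 of them, and from 0.06 to 0.15 for the hypoxia targets. No test of a class as a whole was made.

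**Figure D1:**
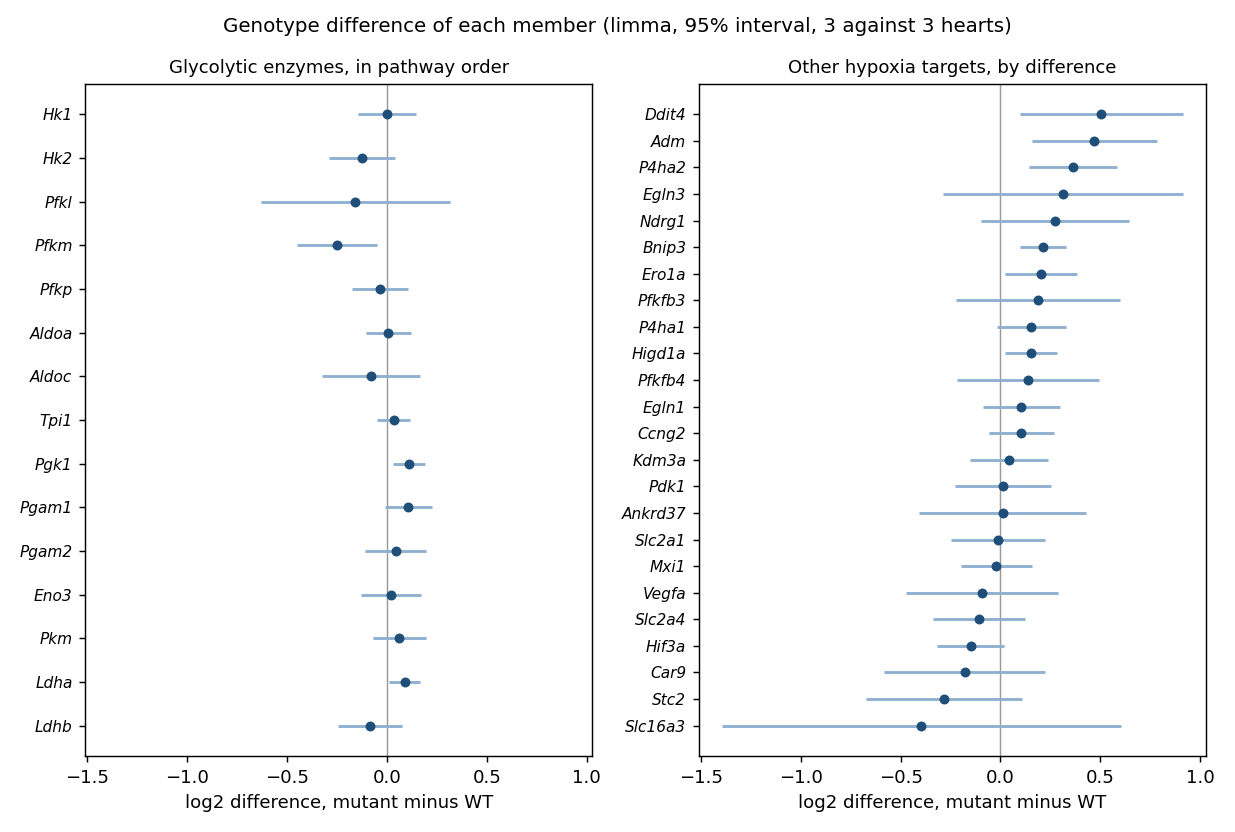
The log2 difference, mutant minus WT, of each of the 39 tested members on the horizontal axis, with limma's unadjusted 95% interval as a bar, for 3 mutant against 3 WT hearts; enzymes are in pathway order at left and other hypoxia targets by size of the difference at right. The enzymes lie between -0.25 and 0.11, and the hypoxia targets between -0.40 for Slc16a3 and 0.50 for Ddit4.

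The sequence just before the start sites of the members is shown for the 9 whose genotypes did not overlap, because HIF binds a short core in DNA and these are the members whose values the text gives in most detail. Promoters came from RefSeq (build GRCm38.p6), which matched 40 of the 42 listed genes by symbol. Ndrg1 and Slc2a4 were not matched. The letters searched were ACGTG and GCGTG on both strands, in the 250 bases before each start site. A palindromic CACGTG counts as 2 overlapping matches. Each line gives the stretch from at most 20 bases before the first match to at most 20 bases after the last one, never past the start site, 5′ to 3′ on the strand of the gene, with every match in capitals.
Bnip3, chr7:138909517-138909643, minus strand: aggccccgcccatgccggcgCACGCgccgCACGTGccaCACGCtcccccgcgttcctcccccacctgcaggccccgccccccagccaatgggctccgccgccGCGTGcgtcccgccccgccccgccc
Higd1a, chr9:121857838-121857886, minus strand: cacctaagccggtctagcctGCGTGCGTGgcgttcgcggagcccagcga
P4ha2, chr11:54100797-54100879, plus strand: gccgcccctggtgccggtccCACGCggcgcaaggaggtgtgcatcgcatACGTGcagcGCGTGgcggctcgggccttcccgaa
Ero1a, chr14:45318611-45318720, minus strand: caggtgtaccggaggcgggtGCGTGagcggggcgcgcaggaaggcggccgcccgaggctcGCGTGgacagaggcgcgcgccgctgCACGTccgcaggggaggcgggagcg
Adm, chr7:110627547-110627627, plus strand: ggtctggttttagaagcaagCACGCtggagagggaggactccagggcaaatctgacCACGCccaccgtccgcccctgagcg
Pgk1, chrX:106186930-106186993, plus strand: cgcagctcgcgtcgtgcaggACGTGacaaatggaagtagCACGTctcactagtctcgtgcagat
Ldha, chr7:46845639-46845794, plus strand: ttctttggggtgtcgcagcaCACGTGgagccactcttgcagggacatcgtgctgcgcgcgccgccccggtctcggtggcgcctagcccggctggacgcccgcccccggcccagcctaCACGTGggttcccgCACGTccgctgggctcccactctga
Pfkm, chr15:98092433-98092478, plus strand: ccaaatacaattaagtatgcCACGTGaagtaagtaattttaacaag
Hif3a, chr7:17062589-17062677, minus strand: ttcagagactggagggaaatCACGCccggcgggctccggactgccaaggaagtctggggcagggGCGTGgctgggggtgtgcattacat
For Ldha and Pfkm, which have several start sites in the table, the first one by coordinate that holds a match is printed, so a match there was fixed by this choice. The other Ldha start held 1 match, and the other Pfkm starts held 2, 1 and 0.

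In the promoters printed, Bnip3 and Ldha held 5 matches each. Those of Ldha were all ACGTG and lay 145 to 34 bases before the start, while Bnip3 had 2 ACGTG and 3 GCGTG between 117 and 35 bases before it. P4ha2 and Ero1a had 3 each, and Higd1a, Adm, Pgk1, Pfkm and Hif3a had 2. Both Adm matches were GCGTG, and both Pgk1 matches were ACGTG, at 150 and 131 bases before the start. The letters are therefore present before 7 members with mutant arrays above WT and before the other two, Pfkm and Hif3a, with mutant arrays below.

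Of the 58 member promoters 46 held at least 1 match (79.3%), 75.9% for the enzymes and 82.8% for the hypoxia targets. The share was 38.6% of all 32851 promoters of the same length and 56.1% of the 11584 promoters of tested genes. ACGTG alone was in 43.1% of member promoters and 21.7% of those of tested genes. The median G and C content was 60.4% in member promoters and 52.4% in all promoters. It was 0.4 percentage points higher in member promoters than in those of tested genes. The median number of CG pairs was 14 in member promoters and 16 in those of tested genes. The classes lay on either side of the promoters of tested genes in both measures. Hypoxia targets had medians of 64.0% and 19 CG pairs, and enzymes 58.4% and 13. The part of base composition in the share of promoters with a match was not tested. Promoters of 1 gene can overlap and are not independent, and a match is a description of sequence, not a HIF site. Of the 40 matched genes 37 held a match in at least 1 promoter (92.5%), against 62.4% of tested genes and 41.5% of all genes with a promoter. The number of promoters per gene, which can raise this share, was not adjusted for. Pgam2, Tpi1 and Gpi1, each with 1 promoter in the table, held no match in this window.

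The hexokinases, which trap glucose in the cell as glucose 6-phosphate, opened the pathway with small differences. Hk1 read 11.65, 11.84 and 11.79 log2 units in WT replicates 1, 2 and 3 and 11.81, 11.78 and 11.69 in mutants. The genotypes overlapped and their means were equal to 2 decimals at 11.76 (95% interval of the difference -0.14 to 0.15). Hk2, the insulin-responsive muscle isoform, had a difference of -0.12 (SE 0.07). A second Hk1 probe set gave -0.17.

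Phosphofructokinase commits the sugar to glycolysis, and its 3 subunit genes all had negative differences. Pfkm, the muscle subunit, read 10.86, 11.20 and 11.13 in WT and 10.85, 10.82 and 10.78 in mutants. The mutants lay below every WT array, though mutant replicate 1 and WT replicate 1 were nearly equal, and WT replicates 2 and 3 made the gap. The difference was -0.25 (SE 0.09, 1.19-fold, limma adjusted p = 0.236). Without WT replicate 1 it was -0.35 and passed (limma adjusted p = 0.0297, with a range of 0.0297 to 0.540 over all alternatives run), and this was the only call of an enzyme in any of them. In that setting 451 of 11113 genes were called, against 196 in the main fit.

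Pfkm is also abundant in skeletal muscle, and of 15 markers of that tissue 5 were tested. Tnni2 fell by 1.04 and Casq1 by 0.41, 2 of the 5 (40.0%), where 0.369% of all genes were called lower. The summed intensity of the 5 was 8738 to 11140 in WT, lowest in replicate 1 and highest in replicate 2, and 8569 to 9074 in mutants. Mean levels of the 5 ran from 6.955 to 12.87 log2 units, so the highest of them makes up most of the sum. The sum is therefore not a reading of the markers as a set. Myog, Actn3, Myh1, Myh2, Myh3, Myh4 and 4 other markers did not enter the test. The part of skeletal muscle RNA in the Pfkm values was not tested.

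Pfkl, the liver subunit, had 1 array far above the others. It read 10.33, 11.21 and 10.29 in WT and 10.49, 10.38 and 10.48 in mutants, and the mean difference was -0.16 (SE 0.21). Without that array the difference was 0.14 (limma adjusted p = 0.461, in a range of 0.368 to 0.883 over the alternatives). The second Pfkl probe set showed the same array high, at 10.34 against 9.43 and 9.49 in the other WT hearts. The third one did not, at 6.88, 7.10 and 7.18 in WT and 6.70, 6.94 and 6.61 in mutants, and its difference was -0.30 (SE 0.14). Pfkp, the platelet subunit, read 11.26, 11.41 and 11.29 in WT and 11.35, 11.28 and 11.23 in mutants, which overlapped, with a difference of -0.03 (SE 0.06).

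Aldolase splits the sugar into 3-carbon units, and triose phosphate isomerase makes both usable. Aldoa read 12.87, 12.93 and 12.75 in WT and 12.88, 12.87 and 12.82 in mutants, with a difference of 0.01 (SE 0.05) and 4 other probe sets between -0.12 and 0.04. Aldoc, the isoform first known from brain, had -0.08 (SE 0.11). Tpi1 had 0.03 (SE 0.04), and its other probe sets gave 0.04 and 0.05.

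Gapdh, the oxidising step of the pathway, was read only by array controls. Its 5′ control, the one with the highest mean, read 13.37, 13.35 and 13.31 in WT and 13.40, 13.40 and 13.38 in mutants, every mutant above every WT array. When this control was allowed into the fit, the difference was 0.05 (SE 0.03, limma adjusted p = 0.510 over 11114 genes). The 3′ control gave 0.03 and the middle one 0.06, and on both the genotypes overlapped. Over the 6 arrays the 3′ control read 13.18 to 13.25 and the 5′ control 13.31 to 13.40. A further 3 probe sets matched Gapdh together with pseudogenes, at differences of 0.03, -0.13 and -0.22, and stayed out because they cannot be assigned to Gapdh.

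Pgk1 and Ldha were the 2 of the 15 tested enzymes whose mutant arrays all lay above WT, where 11.5% of all genes did so. With Pfkm, 3 of the 15 did not overlap, against 21.2% of all genes. These counts lay near the background and are not a result about the enzymes. Pgk1, which makes the first ATP of the pathway, read 12.96, 12.93 and 12.93 in WT and 13.07, 13.05 and 13.04 in mutants. The arrays of each genotype lay closer together than the gap between the genotypes. The difference was 0.11 (SE 0.04, 1.08-fold, limma adjusted p = 0.183), and the other Pgk1 probe sets gave 0.09 and 0.11.

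Ldha, the lactate dehydrogenase subunit that predominates where pyruvate is turned to lactate, read 13.08, 13.06 and 13.05 in WT and 13.15, 13.16 and 13.14 in mutants. Here too the genotypes did not overlap, with a difference of 0.09 (SE 0.03, 1.06-fold, limma adjusted p = 0.264). Ldhb, the subunit typical of the oxidative heart, had -0.08 (SE 0.07), and its 3 other probe sets gave -0.09, -0.06 and -0.09. The lowest mutant array of Ldhb (12.32) was under all WT arrays and the highest (12.54) above 2 of 3, so the genotypes overlapped.

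The remaining late steps overlapped between genotypes. Pgam1, a phosphoglycerate mutase, read 12.20, 12.11 and 12.06 in WT and 12.26, 12.26 and 12.17 in mutants, with a difference of 0.11 (SE 0.05). Its muscle isoform Pgam2 had 0.04 (SE 0.07). Eno3, the muscle enolase, read 12.20, 12.42 and 12.43 in WT and 12.41, 12.38 and 12.32 in mutants, a difference of 0.02 (SE 0.07). Pkm, pyruvate kinase of muscle and fetal tissue, had 0.06 (SE 0.06).

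The main probe sets of the enzymes had mean log2 intensities of 8.86 to 13.10. Their standard errors had a median of 0.06, against 0.11 over all genes. The unadjusted 95% intervals of all 15 lay between -0.63 and 0.31, so a 2-fold change of any of them in either direction was outside its interval. Ldha lay at the upper end of that range, and a flattening of differences at this end of the scale was not tested.

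**Figure D2:**
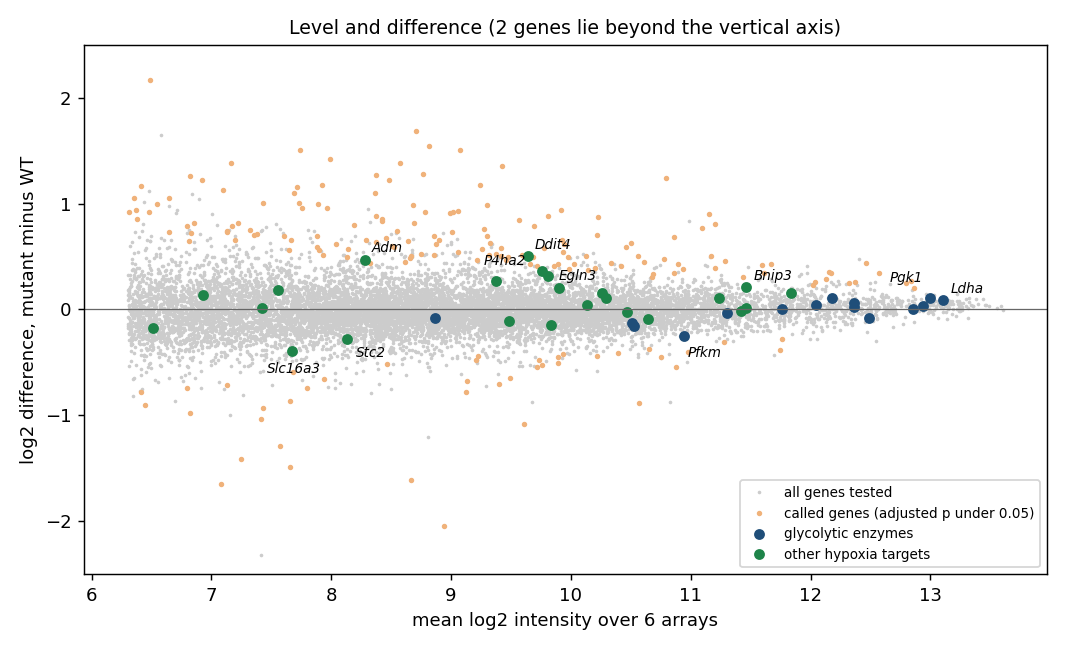
The log2 difference, mutant minus WT, against the mean log2 intensity over the 6 arrays for the 11113 genes tested, of which 2 lie beyond the vertical axis (grey), the 196 called genes (orange), 15 glycolytic enzymes (blue) and 24 other hypoxia targets (green). The enzymes lie at 8.86 to 13.10 on the horizontal axis and at -0.25 to 0.11 on the vertical one, and the hypoxia targets at 6.51 to 11.84 and -0.40 to 0.50.

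The transporters that feed and drain the pathway all had negative differences, none of which passed. Slc2a1, the GLUT1 glucose transporter that predominates in the fetal heart, read 11.59, 11.26 and 11.41 in WT and 11.36, 11.26 and 11.61 in mutants, which overlapped almost fully, with a difference of -0.01 (SE 0.10). Slc2a4, the insulin-dependent GLUT4, had -0.11 (SE 0.10). Slc16a3, the MCT4 exporter of lactate, read 7.27, 9.17 and 7.17 in WT and 7.45, 7.40 and 7.57 in mutants. WT replicate 2 lay far above every other array, and without it the difference turned from -0.40 (SE 0.44) to 0.25 (SE 0.12, limma adjusted p = 0.436, in a range of 0.426 to 0.857 over the alternatives).

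The regulators Pfkfb3, Pfkfb4 and Pdk1 set the flow through the pathway at its branch points, and their differences were positive and within the spread. Pfkfb3, which makes the allosteric activator of phosphofructokinase, read 7.48, 7.77 and 7.13 in WT and 7.89, 7.42 and 7.64 in mutants, a difference of 0.19 (SE 0.18) with overlapping genotypes. Its relative Pfkfb4 had 0.14 (SE 0.16). Pdk1, the kinase that shuts pyruvate dehydrogenase, had 0.01 (SE 0.11).

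Bnip3 had the smallest p of all members. Bnip3, a mitochondrial protein of the BCL2 family that starts removal of mitochondria in hypoxia, read 11.37, 11.31 and 11.39 in WT and 11.59, 11.58 and 11.54 in mutants. The mutants were all above WT by more than the spread within either genotype, with a difference of 0.21 (SE 0.05, 1.16-fold, limma adjusted p = 0.0876). It passed with array quality weights (limma adjusted p = 0.0370), where 429 of 11113 genes were called, against 196 in the main fit. Over all alternatives the difference was 0.19 to 0.25 (limma adjusted p = 0.0370 to 0.407). Bnip3 had 1 probe set only.

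Higd1a, a mitochondrial protein induced by hypoxia, read 11.71, 11.81 and 11.76 in WT and 11.98, 11.94 and 11.82 in mutants. The genotypes did not overlap, although mutant replicate 3 and WT replicate 2 were nearly equal, and the difference was 0.15 (SE 0.06, limma adjusted p = 0.261). Its 2 other probe sets gave 0.02 and 0.07.

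Ddit4, an inhibitor of mTORC1 signalling that is also known as REDD1, had the largest difference of the members. It read 9.05, 9.86 and 9.24 in WT and 9.88, 9.79 and 9.99 in mutants. WT replicate 2 lay among the mutants and the other WT arrays below all of them. The difference was 0.50 (SE 0.18, 1.42-fold, limma adjusted p = 0.236), and without WT replicate 2 it was 0.74 and passed (limma adjusted p = 0.0203, in a range of 0.0203 to 0.547 over the alternatives). In that setting 92 of 11113 genes were called. Mxi1, an antagonist of Myc, had -0.02 (SE 0.08), and Ccng2, an atypical cyclin of resting cells, 0.10 (SE 0.07).

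Genes of collagen processing and protein folding all had positive differences. P4ha1 and P4ha2 encode catalytic subunits of the prolyl hydroxylase that stabilises collagen. P4ha2 read 9.48, 9.51 and 9.74 in WT and 9.88, 9.87 and 10.07 in mutants, without overlap, a difference of 0.36 (SE 0.10, 1.29-fold, limma adjusted p = 0.116). P4ha1 read 10.12, 10.27 and 10.16 in WT and 10.43, 10.25 and 10.35 in mutants, where only mutant replicate 2 lay within the WT range, a difference of 0.15 (SE 0.08), and its other probe set gave 0.25. Ero1a, the oxidase that drives disulphide formation in the endoplasmic reticulum, read 9.80, 9.77 and 9.83 in WT and 10.11, 9.89 and 10.01 in mutants. These did not overlap either, with a difference of 0.20 (SE 0.08, limma adjusted p = 0.280) and 0.09 and 0.14 on its other probe sets.

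Adm was the one member with a probe set that passed. Adm encodes adrenomedullin, a vasodilating peptide needed for normal vessels in the embryo. Its main probe set, whose name marks possible shared sequence (_x_at), read 7.88, 8.06 and 8.19 in WT and 8.59, 8.25 and 8.71 in mutants, a difference of 0.47 (SE 0.14, 1.39-fold, limma adjusted p = 0.155). The other one, without that mark, read 7.80, 8.06 and 7.998 in WT and 8.64, 8.43 and 8.63 in mutants. On both the mutants lay above every WT array. When each of 19762 probe sets above the filter was tested on its own, the second one rose by 0.61 (SE 0.11, limma adjusted p = 0.0417). It was the only one of 79 member probe sets to pass, against a background of 1.1% of probe sets. This count lay near the background and is not a result about the members.

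The other secreted factors did not share this pattern. Vegfa, the main growth factor of vessels and a textbook HIF target, read 10.26, 11.01 and 10.80 in WT and 10.76, 10.53 and 10.51 in mutants. WT replicate 1 was the lowest of all arrays and WT replicate 2 the highest, and the difference was -0.09 (SE 0.17), or -0.31 without WT replicate 1 and 0.07 without WT replicate 2. Stc2, a secreted glycoprotein, had -0.28 (SE 0.17), while its other probe sets, both under the filter, gave 0.46 and 0.51.

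Members that sense oxygen or dampen HIF went both ways. Egln1, the main HIF prolyl hydroxylase, read 11.13, 11.23 and 11.18 in WT and 11.41, 11.36 and 11.09 in mutants, a difference of 0.10 (SE 0.09), and its other probe set gave -0.11. Egln3, the most strongly hypoxia-induced of the family in many cells, read 8.94, 10.17 and 9.85 in WT and 10.15, 9.73 and 10.01 in mutants. Its difference of 0.31 (SE 0.27) rested on WT replicate 1 and was -0.05 without it. Hif3a, whose short forms inhibit HIF, read 9.91, 9.96 and 9.84 in WT and 9.80, 9.77 and 9.70 in mutants. Every mutant array was below every WT array, with a difference of -0.15 (SE 0.07, limma adjusted p = 0.387), and 4 other probe sets above the filter gave -0.45 to 0.21.

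The last hypoxia targets overlapped between genotypes. Ndrg1, a stress-response gene, had 0.27 (SE 0.16) with 4 other probe sets between -0.04 and 0.29. Kdm3a, a histone demethylase, had 0.04 (SE 0.09). Ankrd37 had 0.01 (SE 0.19). Car9, a carbonic anhydrase of the cell surface that is widely used as a hypoxia marker, had a mean of 6.51, just above the filter, and a difference of -0.18 (SE 0.18).

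**Figure D3:**
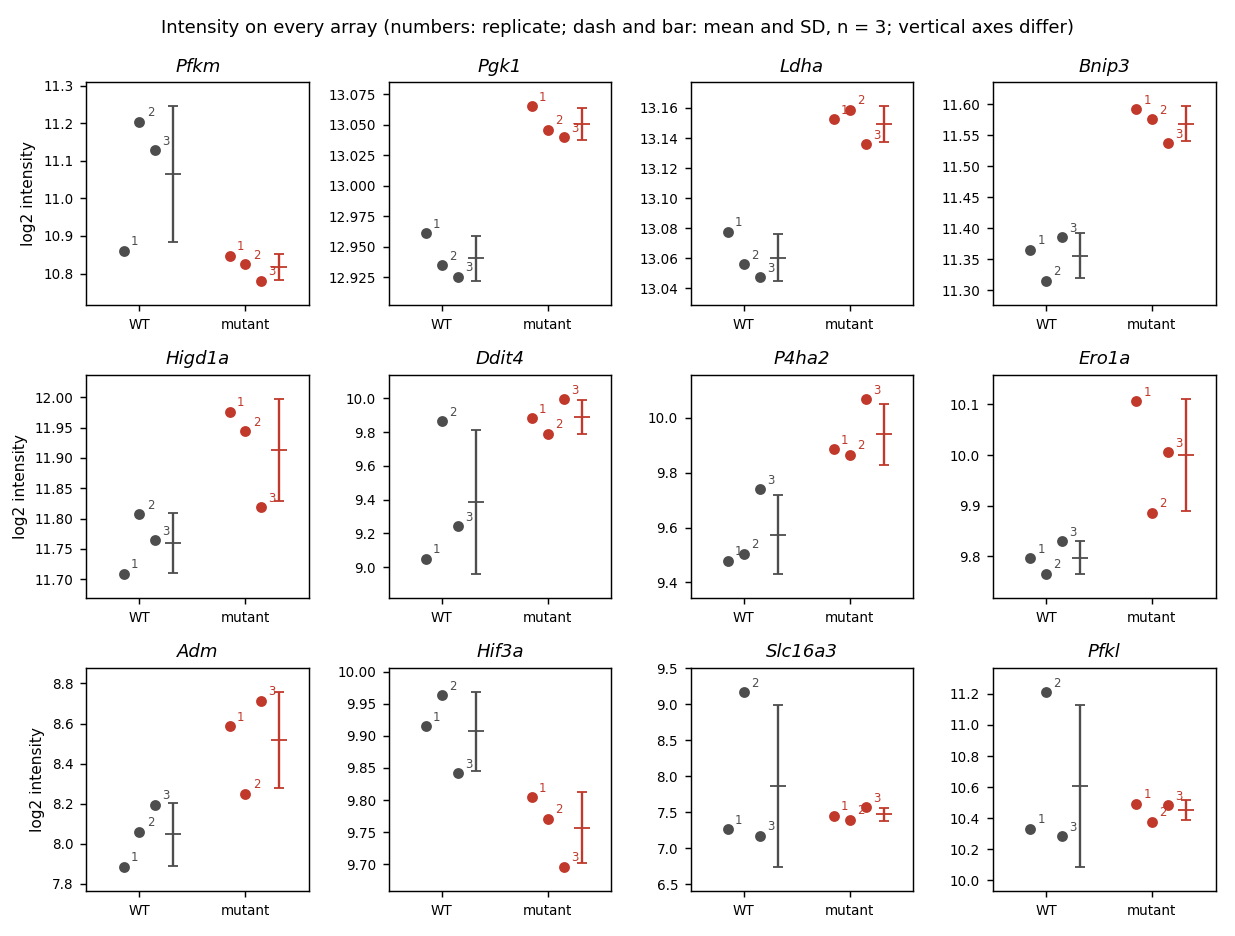
Log2 intensity of 12 members on every array, with WT in grey and mutants in red, the replicate number beside each point, and a dash with bar for the mean and SD of 3 arrays; vertical axes differ between panels. In 9 panels the genotypes do not overlap, and in Ddit4, Slc16a3 and Pfkl, chosen after their values were seen, WT replicate 2 lies above both other WT arrays.

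Probe sets of the same gene differed in size and sometimes in sign. Of the 39 members 21 had another probe set above the filter, 40 in all, and 31 of these had the sign of the main one. In 14 members all others had that sign, and in 7 (Hk1, Aldoa, Egln1, Ndrg1, Pdk1, Hif3a and Mxi1) at least 1 did not. Probe sets can read different transcript forms or 3′ ends, and which forms each one reads was not analysed here.

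**Figure D4:**
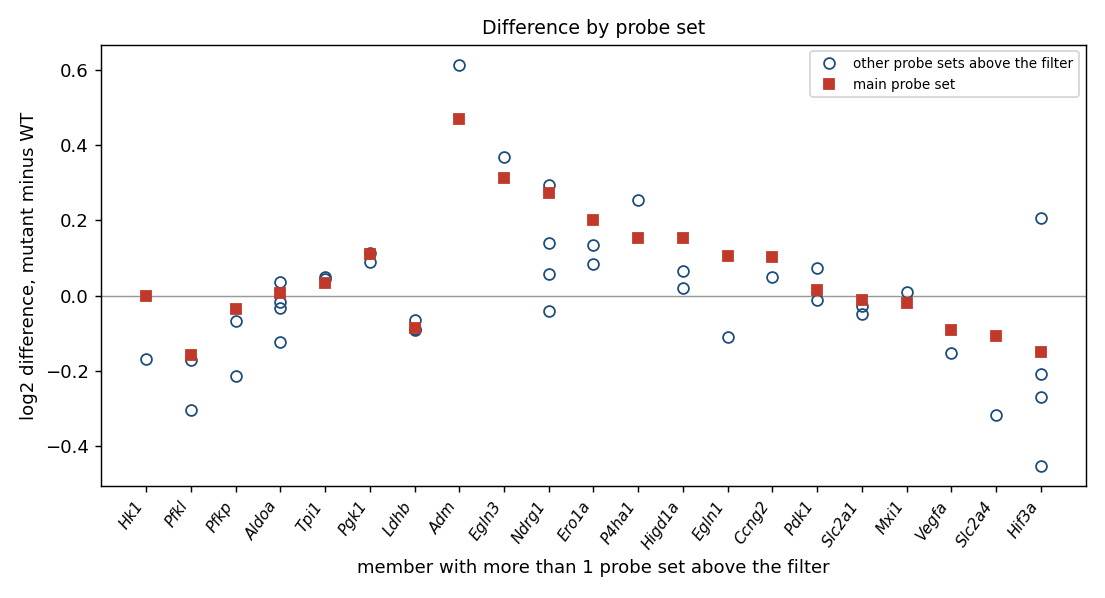
The log2 difference, mutant minus WT, of every probe set above the filter for the 21 members with more than 1, with the main probe set as a red square and the others as open circles. Both Adm probe sets lie highest, at 0.47 and 0.61, and those of Hif3a spread from -0.45 to 0.21.

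The extreme values of the members gathered on a few arrays. WT replicate 1 held the lowest value of the 6 arrays for 16 of 39 members (41.0%), against 14.6% of all genes. It did so for 13 of the 24 hypoxia targets (54.2%), and it was the highest for 0 members, against 15.9% of all genes. WT replicate 2 was the highest for 14 members (35.9%), against 21.3% of all genes. It was the lowest for 3 members (7.69%), but for 27.9% of all genes, the largest share of the 6 arrays. Both shares of WT replicate 2 among the members thus departed from those of all genes, and no test was made of them. Mutant replicate 1 was the highest for 13 (33.3%, against 16.7% of all genes) and the lowest for 0 (against 11.1%). The mean over the hypoxia targets was 9.37, 9.67 and 9.52 log2 units in WT replicates 1, 2 and 3 and 9.66, 9.52 and 9.63 in mutants, so WT replicate 1 was the lowest and WT replicate 2 the highest of the 6, and the genotypes overlapped.

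The summed intensity of the tested erythroid markers was highest in WT replicate 1. Of 13 erythroid markers 4 were tested (Hba-x, Hbb-y, Alas2 and Slc4a1), with summed intensities of 8830, 2706 and 2166 in WT and 3694, 4481 and 2256 in mutants. Hbb-y, an embryonic globin, read 12.59 in WT replicate 1 and 9.33 to 11.37 elsewhere. Hbb-y makes up most of the sum in WT replicate 1, so the sum is not a reading of the markers as a set. The part of blood content in the members' values was not tested. In whole hearts fewer cells of a type and less RNA per cell cannot be told apart. Without WT replicate 1 the median difference of the hypoxia targets was 0.07, with 14 of 24 positive, and that of the enzymes was -0.05. The drop of the hypoxia targets was not particular to this array. Their median was 0.06 without mutant replicate 1, 0.07 without mutant replicate 3 and 0.08 without WT replicate 3. It was 0.13 without mutant replicate 2 and 0.15 without WT replicate 2.

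**Figure D5:**
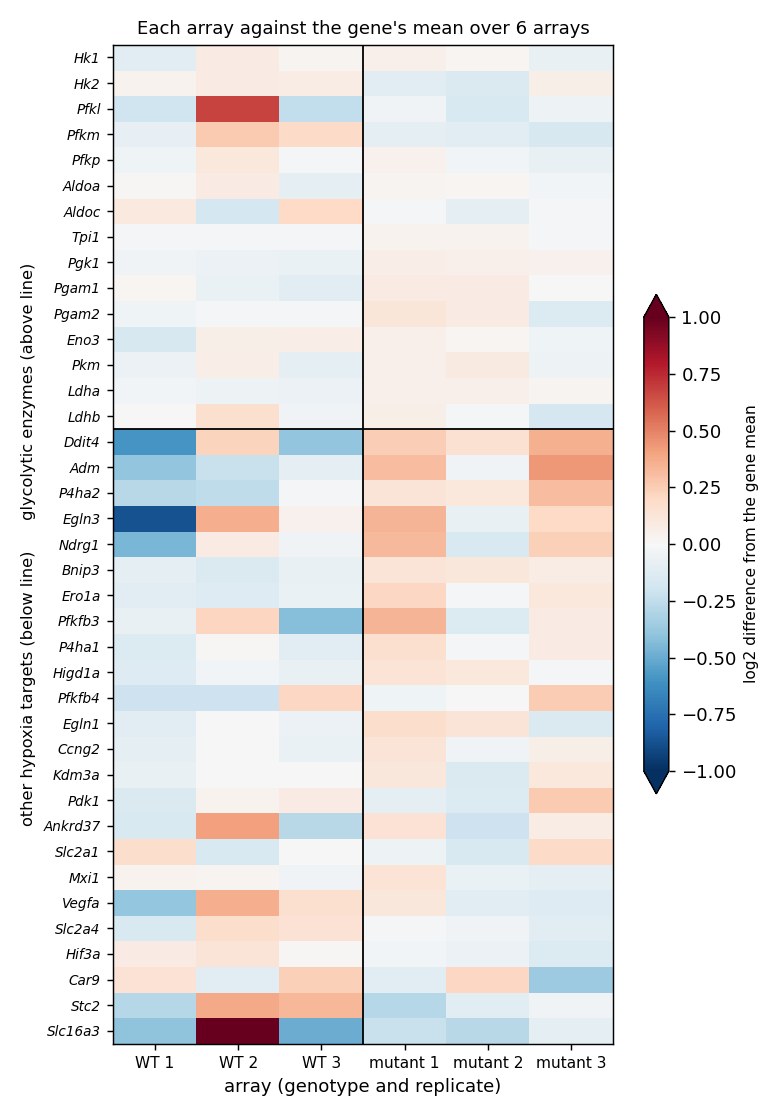
Each of the 39 members (rows, enzymes above the line) on each of the 6 arrays (columns), coloured by the log2 difference from the gene's mean over the 6 arrays, with the colour scale ending at 1 in either direction. WT 1 is low for Egln3, Ddit4 and Ndrg1, WT 2 is high for Slc16a3 and Pfkl, and the mutants show smaller departures for these genes.

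The HIF subunits and their regulators, listed apart from the members, gave 0 calls by limma among 9 tested of 10, where 1.76% of all genes were called. At an unadjusted p under 0.05 there was 1 (11.1%), against 14.7% of all genes. Hif1a, the HIF-1 alpha subunit, is regulated mainly as a protein, and its transcript read 12.13, 12.17 and 12.16 in WT and 12.17, 12.25 and 12.26 in mutants. Every mutant was above every WT heart, mutant replicate 1 only barely, with a difference of 0.07 (SE 0.05). The difference was -0.0018 when probe sets with names ending in _s_at, _x_at or _a_at were left out. Epas1, the HIF-2 alpha subunit, had 0.12 (SE 0.07), or -0.19 as the mean over its probe sets, and Vhl, which marks HIF for breakdown, had 0.08 (SE 0.09). Ep300, a coactivator, had -0.23 and Egln2, a prolyl hydroxylase, -0.21, each with every mutant below every WT heart. For Egln2 this held only barely, with mutant replicate 2 at 9.538 and WT replicate 1 at 9.540. In this list 4 of 9 did not overlap (44.4%), 1 with the mutants above and 3 below. Over all genes the share was 21.2%, of which 11.5% above and 9.76% below.

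Other genes of glucose and pyruvate handling gave 1 call among 16 tested of 29 (6.25%, against 1.76% of all genes). Slc16a1, the MCT1 carrier through which heart muscle takes up lactate, read 11.81, 11.96 and 11.93 in WT and 11.67, 11.62 and 11.59 in mutants. All mutants were below all WT hearts, and Slc16a1 fell by 0.27 (SE 0.06, 1.21-fold, limma adjusted p = 0.0480). The call was lost in 11 of 19 alternatives (adjusted p = 0.0219 to 0.184), among them median centring and each single array left out except WT replicate 1, while the difference stayed between -0.32 and -0.23. Slc2a3, the GLUT3 transporter, had the next smallest p and did not pass, at 8.76, 8.89 and 8.57 in WT and 9.30, 9.19 and 9.04 in mutants (0.44, SE 0.11, limma adjusted p = 0.101). It passed with array quality weights (0.53, limma adjusted p = 0.0219, in a range of 0.0219 to 0.435 over the alternatives), a setting that called 429 genes.

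Genes of glycogen and the pentose phosphate pathway also gave 1 call, among 16 tested of 18 (6.25%, against 1.76% of all genes). Gyg, glycogenin, the protein on which a glycogen chain is started, read 12.81, 12.64 and 12.66 in WT and 12.96, 12.98 and 12.96 in mutants. It rose by 0.27 (SE 0.05, 1.20-fold, limma adjusted p = 0.0380), and its other probe set gave 0.24. The call was lost in 12 of 19 alternatives (adjusted p = 0.00691 to 0.187), again with each single array left out except WT replicate 1, while the difference was 0.22 to 0.32 in all of them. Pygl, the liver glycogen phosphorylase, had -0.22 (SE 0.09).

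Of 36 further hypoxia targets 30 were tested, and 1 passed (3.33%, against 1.76% of all genes). Ppfia4, a liprin reported as hypoxia-induced, read 8.08, 8.44 and 8.27 in WT and 7.60, 7.45 and 7.79 in mutants, so it was lower in mutants, the direction opposite to most members. It fell by 0.65 (SE 0.13, 1.57-fold, limma adjusted p = 0.0467), with -0.41 on its other probe set above the filter. The call was lost in 10 of 19 alternatives (adjusted p = 0.0135 to 0.204), with the same 5 arrays each left out among them. Anxa2, a membrane-binding annexin, had 0.15 (SE 0.05). In this list 22 of 30 differences were positive (73.3%), with a median of 0.08, against 47.2% and -0.01 over all genes.

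The tissue label was checked with 12 cardiomyocyte markers, all of which were tested, with 0 called and a summed intensity of 100400 to 103900 in WT and 105100 to 107000 in mutants. Endothelial markers summed to 9469 to 10440 and 10520 to 11110, with 1 of 8 higher (12.5%, against 1.39% of all genes). Epicardial and mesothelial markers summed to 6433 to 6555 and 8101 to 8791, with 6 of 10 higher. Lung and airway markers, 3 of 9 tested, summed to 165 to 265 in WT and to 660, 167 and 3440 in mutants, and liver markers, 1 of 6 tested, to 109 to 161 and 132 to 134. Zfpm2 itself was higher by 0.44 (limma adjusted p = 0.0134), a call lost in 3 of 19 alternatives, without WT replicate 3 (0.45, adjusted p = 0.0532), mutant replicate 1 (0.42, adjusted p = 0.115) and mutant replicate 2 (0.44, adjusted p = 0.0699), in a range of 0.00475 to 0.115 over all of them. The median intensity of an array was 77.4 to 84.1, and correlations between arrays over tested genes were 0.982 to 0.986 within WT, 0.990 to 0.995 within mutants and 0.972 to 0.990 between genotypes. The part of other cell types in the members' values was not tested.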

How the data were processed

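Each sample's total RNA (3 µg, per the labels' protocols) was hybridised to a 1-colour Affymetrix array. The deposited value table gives linear intensity for 45101 probe sets. The summary software and normalization behind it are not named in the labels and were not given in any source at hand, though array medians lie within 0.12 log2 units. Array controls number 64. Of the rest, the platform annotation gives a single symbol for 34945 probe sets, more than 1 for 932 and no symbol for 9160.

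Values under 1 were raised to 1 before log2 was taken. No quantile step was run, since it was planned only for medians over 0.2 apart. Genes (18193) were read by their highest-mean probe set, array controls left out, and 11113 lay above the median probe set (6.30). They were tested in limma 3.58.1 under R 4.3.3 (lmFit, eBayes with an intensity trend, two-sided). The code was tested on simulated data, and figures were drawn with matplotlib 3.10.9. Alternatives changed the normalization, offset, filter, probe sets, variance model, block, threshold or left out 1 array. All members are named, and of the other pathway lists the called genes and the 2 with the smallest p, with Hif1a, Epas1 and Vhl. Cell type markers are given by sums and counts. Every array value was given for members without overlap and for the one with the highest mean of each isoenzyme family. Other array values, and the role groups in the text, were chosen after values were seen. The members and lists were chosen with earlier results of these data known. The number of arrays limits the precision.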

Additional observations from a re-analysis of the deposited data

How the results depend on the processing

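With 3 arrays per genotype and no probe-level files, the precision rests on the number of arrays, and signal over background was judged only by the filter. Of 730 member differences over all alternatives 689 kept their sign and 41 turned. The sign held throughout for 20 members, among them Bnip3, Adm, P4ha2, Ero1a, Higd1a, Ddit4, Pgk1, Ldha, Pfkm and Hif3a, and turned at least once for 19. The cause of a turn was not tested.

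By limma, 196 genes were called, 81 with no filter, 125 with the mean over probe sets, 119 with no intensity trend, 429 with array quality weights, 369 at an adjusted p under 0.1, and 37 (without mutant replicate 1) to 451 (without WT replicate 1) on leaving out 1 array. Members called were 0, but 1 without _s_at, _x_at and _a_at probe sets (Adm, 0.61, adjusted p = 0.0336), 1 with array quality weights (Bnip3, adjusted p = 0.0370) and 1 at an adjusted p under 0.1 (Bnip3). These are all hypoxia targets, so the hypoxia targets called were likewise 1 in each of these settings. On leaving out 1 array the members called were 0 to 1, the enzymes 0 to 1 (Pfkm without WT replicate 1) and the hypoxia targets 0 to 1 (Ddit4 without WT replicate 2).

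With the replicate number as a block (replicate block) 234 genes and 0 members were called. Same-numbered arrays deviated together with correlations of -0.06, 0.13 and 0.41, and WT replicate 2 correlated best with mutant replicate 1 (0.25), so the numbers were not taken as pairs.

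Signs turned with quantile normalization for Hk1 (-0.0075), Aldoa (-0.039), Tpi1 (-0.010) and Eno3 (-0.013). The mean over probe sets turned Hk1 (-0.084), Aldoa (-0.0255), Egln1 (-0.0023), Pdk1 (-0.0099), Stc2 (0.23) and Epas1 (-0.19). Median centring turned Pfkp (0.0072), Slc2a1 (0.029) and Mxi1 (0.022). Without _s_at, _x_at and _a_at probe sets Ndrg1 was -0.040 and Hif1a -0.0018, and array quality weights gave Pdk1 -0.0895 and Mxi1 0.028.

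On leaving out 1 array the differences that turned ranged from -0.055 to 0.042 for Hk1, -0.32 to 0.14 for Pfkl, -0.0665 to 0.0087 for Pfkp, -0.041 to 0.049 for Aldoa, -0.19 to 0 for Aldoc, -0.0048 to 0.12 for Pgam2, -0.055 to 0.059 for Eno3, -0.11 to 0.072 for Slc2a1, -0.74 to 0.25 for Slc16a3, -0.31 to 0.069 for Vegfa, -0.047 to 0.57 for Egln3, -0.12 to 0.22 for Ankrd37, -0.11 to 0.087 for Pdk1, -0.094 to 0.025 for Mxi1 and -0.0017 to 0.13 for Kdm3a.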
